A study of Mus musculus with 4 samples.

Results

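The genes described here copy DNA and supply its building blocks: 52 genes of origin licensing, the replicative helicase, primase and polymerases, the sliding clamp and its loader, single-strand binding and lagging-strand processing, deoxynucleotide synthesis, and chromatin assembly at the fork. They were chosen by symbol, and 51 of the 52 had at least 1 probe set annotated to that symbol alone, 110 probe sets in all, among 18193 genes and 45037 probe sets on the array. Chaf1a, a subunit of the chromatin assembly factor that deposits histones on new DNA, has no signal given here, and its promoter is among those counted below. A further 2 probe sets annotated to one of these genes together with another gene were set aside.

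Total RNA of MC/9 cells, an established mast cell line whose label gives liver of a (B6 X A/J)F1 mouse at 13 days as its origin, was hybridised to Affymetrix Mouse Genome 430 2.0 arrays. Each of 4 groups held 1 array: one left untreated (control), one exposed to 10 microM of berberine (BER), one to 500 microg/ml of IgE against DNP (DNP), and one to both together (BER+DNP). The 3 treated groups had 24 h of treatment and then 6 h of culture, whereas no times are given for the control, and the cells of all groups were of the same line in the same medium. Berberine is a plant alkaloid, and IgE is the antibody class that mast cells bind through the receptor FceRI; no antigen step is named in the labels. With 1 array a group no difference has a replicate check; no test was run and no p-value is given.

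Probe set readings are log2 signals, so a difference of 1 is a 2-fold difference, and each gene is read from the probe set with its highest mean over the 4 arrays (its brightest) unless stated. Array medians lay between 3.13 and 3.15, and the arrays correlated at 0.988 to 0.991 over probe sets. Of the 51 genes, 36 read at or above the median probe set (3.14) and 20 at or above the 75th percentile (4.31). Of all 18193 genes read in this way, 12585 and 7483 did, shares close to those of the 51. Of 14 measured mast cell markers, 7 read at or above that median, among them Gata2 at a mean of 5.87, Hdc at 5.50, Tpsb2 at 4.08 and Mcpt4 at 3.85, while Kit, Fcer1a, Ms4a2 and Cpa3 lay below it at 2.78, 2.43, 2.67 and 2.53; the list's summed linear signal ran from 194 to 227 over the arrays. Of 8 leukocyte genes 5 read at or above the median, including Laptm5 at 6.69, Arhgdib at 5.46 and Spi1 at 4.38, and Ptprc lay below it at 2.29. For epithelial genes, 7 of 8 read at or above the median, with a summed signal of 1397 untreated, 1423 with BER, 1547 with DNP and 1508 with both. Other marker lists did so about as often: 5 of 5 hepatocyte, 4 of 4 erythroid, 6 of 8 fibroblast and 4 of 6 macrophage genes. Signals of different probe sets are not levels of expression, so these readings do not settle whether the label holds. In RNA from a whole culture, fewer cells in S phase and less of a transcript per cell cannot be told apart.

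DNA replication starts when the origin recognition complex, with Cdc6 and Cdt1, loads the ring of MCM2 to MCM7 onto DNA. Cdc45 and the GINS complex join the ring to form the active helicase, after which primase and DNA polymerases copy the strands, held in place by the PCNA clamp. Most of these genes are transcribed around the start of S phase under control of E2F factors, and growth factor-dependent blood cell lines divide continuously while they are fed. Ribonucleotide reductase, formed by the products of Rrm1 and Rrm2, makes the deoxynucleotides that the polymerases consume.

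Promoter sequences are shown for genes that lay lower by at least 1.3-fold in both berberine pairs below. Only those in the RefSeq promoter table of mouse build GRCm38.p6 are given. Orc1 is added for contrast, as its brightest probe set read high and gave berberine differences near 0. Each run is the 250 bases before the annotated start, 5′ to 3′ on the gene's strand, and for Mcm7 the upstream one of its starts. Capitals mark the CCAAT box letters CCAAT and the E2F-type letters TTTCGCGC, TTTGGCGC, TTTCCCGC or TTTGCCGC, on either strand. The windows are chr2:132253181-132253430 (minus strand) for Pcna, chr5:138171884-138172133 (minus) for Mcm7, chr12:24708004-24708253 (plus) for Rrm2 and chr4:108579204-108579453 (plus) for Orc1.
Pcna: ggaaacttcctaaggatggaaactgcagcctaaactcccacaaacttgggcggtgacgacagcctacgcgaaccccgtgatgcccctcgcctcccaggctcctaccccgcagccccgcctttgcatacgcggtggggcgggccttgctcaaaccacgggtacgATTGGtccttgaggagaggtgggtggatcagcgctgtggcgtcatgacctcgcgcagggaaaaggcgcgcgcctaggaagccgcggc
Mcm7: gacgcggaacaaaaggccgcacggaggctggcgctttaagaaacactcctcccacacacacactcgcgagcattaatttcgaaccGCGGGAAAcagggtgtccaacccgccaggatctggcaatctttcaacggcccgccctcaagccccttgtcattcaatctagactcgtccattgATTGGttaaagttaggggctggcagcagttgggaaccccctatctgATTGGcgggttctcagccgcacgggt
Rrm2: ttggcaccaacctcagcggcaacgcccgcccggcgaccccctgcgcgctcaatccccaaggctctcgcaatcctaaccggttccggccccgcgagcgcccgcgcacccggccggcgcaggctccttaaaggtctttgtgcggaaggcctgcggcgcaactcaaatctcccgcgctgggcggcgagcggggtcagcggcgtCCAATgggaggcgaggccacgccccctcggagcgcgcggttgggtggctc
Orc1: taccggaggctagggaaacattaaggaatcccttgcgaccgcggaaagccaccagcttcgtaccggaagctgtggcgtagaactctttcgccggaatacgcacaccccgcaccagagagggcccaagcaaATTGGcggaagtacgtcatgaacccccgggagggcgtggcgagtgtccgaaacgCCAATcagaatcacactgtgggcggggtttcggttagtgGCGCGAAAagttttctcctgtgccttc

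The windows of Pcna and Rrm2 hold CCAAT letters at 1 place each and none of the E2F-type letters searched. The Mcm7 window shown holds CCAAT at 2 places and TTTCCCGC at 1, while the window of its other start, chr5:138171267-138171516, holds CCAAT at 1 place and E2F-type letters at 0; that of Orc1 holds CCAAT at 2 places and TTTCGCGC at 1. The table had entries for 43 of the 52 genes, with 53 promoters. Of these 53, 10 (18.9%) held E2F-type letters, against 1.86% of all 32851 promoters in windows of the same length, and 27 (50.9%) held CCAAT, against 33.8%. The E2F-type and CCAAT letters overlapped at 0 places. Median GC content was 61.2% for these promoters and 52.4% for all of them. The genes with E2F-type letters were Cdc6, Gins3, Mcm5, Mcm6, Mcm7, Orc1, Orc3, Pola1, Rfc3 and Uhrf1. A match of letters is a description of sequence, and a window without one says nothing of whether a factor binds there.

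Berberine was compared in the pairs BER with control and BER+DNP with DNP, which share no array and ask what the compound does without and with the antibody. The genes at least 1.3-fold lower in both pairs were Pcna, Rrm2, Gins2 and Mcm7, and all 4 were among the 12 brightest of the 51. These were 4 of 51 genes, against 0.737% of all genes, and 0 of 51 were at least 1.3-fold higher in both, against 0.412%. The genes and the fold were chosen with earlier results of these data known, so these counts describe the arrays and are not a test. Below 0 in both pairs lay 21 of the 51 (27.9% of all genes) and above 0 in both 5 of the 51 (25.2% of all genes). The median difference was -0.07 in BER against control, where all genes had 0.00, and -0.09 in BER+DNP against DNP, where all genes had -0.01. The median gene of the group thus differed little from the median of all genes.

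In BER against control, 11 of 51 genes were at least 1.3-fold lower (5.08% of all genes) and 2 at least 1.3-fold higher (4.73%). In BER+DNP against DNP the counts were 9 lower (4.16% of all genes) and 2 higher (3.03%). Past 1.5-fold lay 4 lower genes (0.868% of all genes) and 1 higher (0.923%) without the antibody, and 3 lower (0.632%) and 0 higher (0.473%) with it. Pcna alone was 1.5-fold lower in both (0.126% of all genes), and 0 were 1.5-fold higher in both (0.0605%). Both berberine arrays lay below both arrays without berberine for 14 of the 51 genes (18.1% of all genes) and above both for 4 (15.9%). Over probe sets, 39 of the 110 lay below 0 in both pairs (27.2% of all probe sets with 1 symbol) and 20 above (25%).

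**Figure D1:**
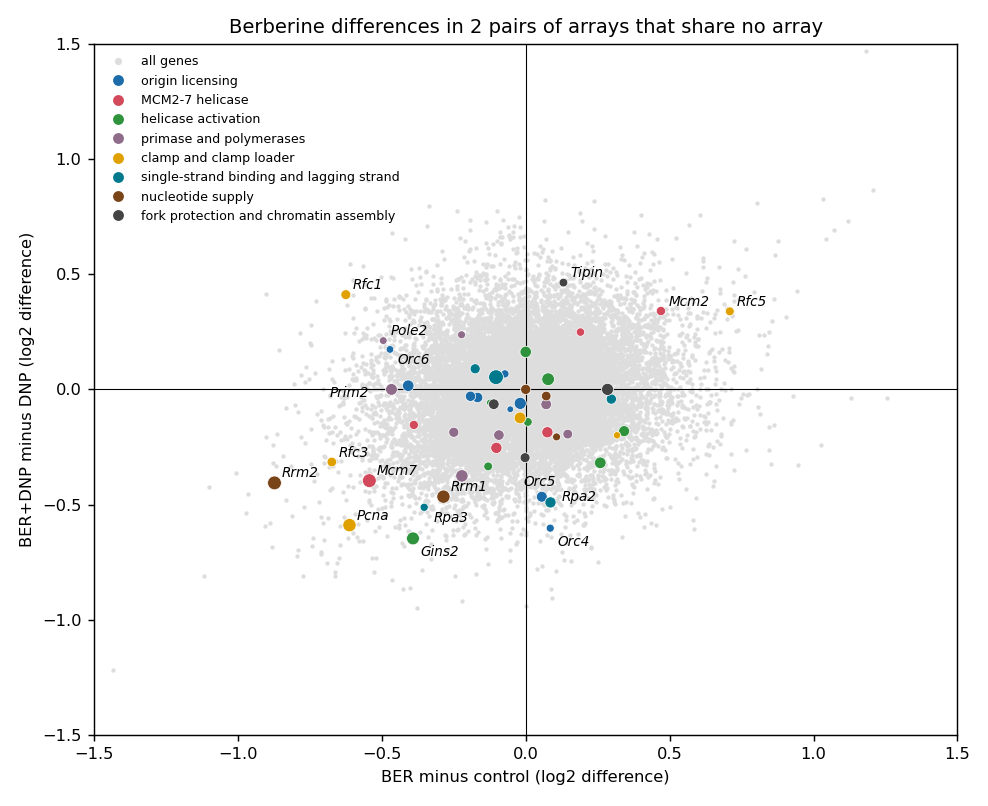
Berberine differences (log2) of each gene in BER minus control (x axis) and BER+DNP minus DNP (y axis), by the brightest probe set; coloured points are the 51 replication and nucleotide genes by role, with larger points for higher mean signal, and grey points all 18193 genes. Pcna, Rrm2, Gins2 and Mcm7 lie in the lower left quadrant with large points, and Rfc1 lies in the upper left at -0.62 and 0.41.

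Control probe sets differed with berberine too. Those for beta-actin gave -0.57 without the antibody and -0.59 with it at the 5′ end, about as much as Pcna below, and -0.31 and -0.22 at the 3′ end. Gapdh lay near 0 at both ends (0.05 and -0.08 at the 5′ end, -0.03 and 0.02 at the 3′ end). The poly-A controls, which are spiked into the RNA, had medians of -0.48 and -0.14. Their part in the results on the replication genes was not tested. The labels state RNA integrity numbers above 9.5 as the condition for using a sample.

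Of the 9 origin licensing genes, 2 were at least 1.3-fold lower in each berberine pair (5.08% and 4.16% of all genes), Orc2 and Orc6 without the antibody and Orc4 and Orc5 with it. Orc1, the largest subunit of the origin recognition complex and the brightest gene of this role, read 5.46 untreated, 5.44 with BER, 5.34 with DNP and 5.28 with both. Its differences with berberine, -0.02 and -0.06, were smaller than those between the arrays with and without the antibody (-0.11 and -0.16). The other Orc1 probe set, at a mean of 1.93, gave -0.06 and -0.26 with berberine. Below 0 in both berberine pairs lay 4 of the 9 (Cdc6, Cdt1, Orc1 and Orc3; 27.9% of all genes) and above 0 in both 0 (25.2%), with medians of -0.07 and -0.04. The genes past the fold were so in 1 pair only. Orc2 gave -0.41 and 0.02 and Orc6 -0.47 and 0.17, while Orc4 gave 0.09 and -0.60 and Orc5 0.06 and -0.47. Orc4 and Orc6 read below the array median, at means of 2.59 and 2.36. Cdt1, the loading factor that is destroyed once S phase begins, gave -0.17 and -0.04, and Gmnn, which encodes its inhibitor geminin, -0.07 and 0.07 at a mean of 2.65. Cdc6, the ATPase that works with Cdt1, had a mean of 1.90, at the 15.0th percentile of probe sets, so its difference carries little.

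Mcm7, by the brightest probe sets, was the 1 of 6 MCM ring genes at least 1.3-fold lower in both pairs (0.737% of all genes). It read 6.94 untreated, 6.40 with BER, 7.27 with DNP and 6.88 with both. BER was the lowest array and DNP the highest, and the array with both agents lay close to control (a difference of -0.07). With berberine Mcm7 was 1.46-fold lower without the antibody and 1.32-fold lower with it. The ring holds its 6 subunits in equal number, but their probe sets gave unlike differences. Mcm6 gave -0.10 and -0.25 and Mcm5 -0.39 and -0.15, while Mcm2 gave 0.47 and 0.34 and Mcm4 0.19 and 0.25. For Mcm2, the readings were 3.08 untreated, 3.55 with BER, 3.13 with DNP and 3.47 with both, so both berberine arrays lay above both others; its other probe set, dimmer at a mean of 2.71, gave -0.42 and 0.37. Mcm3 gave 0.08 and -0.19. Of its other probe sets above the array median, that at a mean of 3.93 gave -0.55 and 0.09, and that at 3.47 gave -0.02 and 0.33. Dimmer Mcm5 probe sets, at means of 2.89 and 2.63, gave 0.13 and -0.24, and 0.19 and -0.05. The medians over the 6 genes were -0.01 and -0.17.

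Gins2, by the brightest probe sets, was the 1 of 8 helicase activation genes at least 1.3-fold lower in either pair (5.08% and 4.16% of all genes). It encodes a subunit of the GINS complex and read 6.14 untreated, 5.75 with BER, 6.45 with DNP and 5.80 with both. Both berberine arrays lay below both others, and the gene was 1.31-fold lower without and 1.57-fold lower with the antibody. The other subunits of this 4-part complex did not share that size: Gins1 gave -0.13 and -0.33 at a mean of 3.00, Gins3 0.34 and -0.18, and Gins4 0.01 and -0.14. A dimmer probe set of Gins2 itself, at a mean of 4.80, gave 0.13 and 0.03. Cdc7, the kinase that fires licensed origins, was bright at a mean of 5.90 and nearly flat, with 0.08 and 0.04. Its activating subunit Dbf4 was dim, at 2.08, with -0.12 and -0.06. Mcm10, which helps the helicase start, gave 0.00 and 0.16. Cdc45, the third part of the active helicase, gave 0.26 and -0.32. Its other probe set, about as bright at a mean of 4.81, gave -0.52 and -0.27, past 1.3-fold lower without the antibody. The role had medians of 0.00 and -0.16.

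The primase and polymerase genes had medians of -0.22 and -0.13. Pold1, the catalytic subunit of polymerase delta and the brightest of this role, read 5.69 untreated, 5.47 with BER, 5.79 with DNP and 5.41 with both. Both berberine arrays lay below both others, with differences of -0.22 and -0.38, the second just short of the fold that was counted. Its partner Pold2 gave -0.09 and -0.20, and Pole, the catalytic subunit of polymerase epsilon, -0.25 and -0.19. Prim2, the large primase subunit, was lower in 1 pair, with readings of 5.32 in control, 4.85 in BER and 5.11 in both DNP and BER+DNP. Prim1, the catalytic primase subunit, gave 0.15 and -0.19, and the polymerase alpha genes lay near 0 or went opposite ways (Pola2 0.07 and -0.06, Pola1 -0.22 and 0.24). Pole2 gave -0.49 and 0.21 at a mean of 2.43. Of the 8 genes, 3 lay below 0 in both pairs (27.9% of all genes) and 0 above (25.2%).

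Of the 4 genes lower in both pairs, Pcna had the most even difference. Its product is the ring that tethers polymerases to DNA. It had 1 probe set, which read 6.62 untreated, 6.00 with BER, 6.83 with DNP and 6.24 with both. Both berberine arrays lay below both others, with log2 differences of -0.61 without the antibody and -0.59 with it. The clamp loader genes, whose products open and close that ring, varied. Rfc3 read 3.90 untreated, 3.22 with BER, 3.59 with DNP and 3.28 with both, giving -0.67 and -0.32 with berberine. Rfc5, at a mean of 3.01 just below the array median, lay on the other side with 2.59 untreated, 3.30 with BER, 2.92 with DNP and 3.26 with both, 1.63-fold and 1.26-fold higher. The other Rfc3 probe set, at a mean of 2.45, gave -0.02 and 0.04. Rfc2, the brightest of the loader genes, gave -0.02 and -0.12, and Rfc4 0.32 and -0.20 at a mean of 2.18. Rfc1, the large subunit, was the 1 gene of the 51 past 1.3-fold on opposite sides (0.291% of all genes), with 4.11 untreated, 3.49 with BER, 3.42 with DNP and 3.83 with both.

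Genes of single-strand binding and the lagging strand were flat or uneven. Fen1, the nuclease that trims Okazaki fragments, had the brightest probe set of all 110, at 7.95 untreated, 7.85 with BER, 7.64 with DNP and 7.69 with both. That probe set carries the suffix x, of probes that can bind other transcripts, and differed by -0.10 and 0.05 with berberine. The other Fen1 probe set was dim and read 2.60, 2.05, 2.63 and 2.09 in the same order, which is -0.55 and -0.54. Rpa3, the small subunit of the single-strand binding protein RPA, gave -0.35 and -0.51 at a mean of 2.66, Rpa2 0.09 and -0.49, and Rpa1 -0.18 and 0.09. Lig1, the ligase that joins Okazaki fragments, gave 0.30 and -0.04. Medians were -0.10 and -0.04.

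In nucleotide supply, both subunits of ribonucleotide reductase lay lower with berberine while the other genes gave no shared direction. Rrm2, the subunit whose level follows S phase, read 7.26 untreated, 6.39 with BER, 7.11 with DNP and 6.71 with both. It was 1.83-fold lower without the antibody and 1.33-fold lower with it, the largest difference of the 51 genes in the first pair. Rrm1, the large subunit, read 6.45 untreated, 6.17 with BER, 6.63 with DNP and 6.17 with both, which is 1.22-fold and 1.38-fold lower. For both genes the berberine arrays lay below the other arrays. Dut, which removes dUTP, gave 0.07 and -0.03. Tyms, which makes thymidylate, gave 0.11 and -0.21 from a probe set with a mean of 2.53. Tk1, thymidine kinase, read 3.91 on all 4 arrays; 55 of the 45037 probe sets had the same value on all 4, and 9.49% on at least 2, so a difference of exactly 0 is not read as an even level.

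Genes of fork protection and chromatin assembly gave no shared direction. Uhrf1, which brings DNA methylation to new strands, was the brightest, at 5.19 untreated, 5.47 with BER, 5.41 with DNP and 5.41 with both. Control was the low array there, and berberine gave 0.28 and 0.00. Timeless and its partner Tipin, which steady the fork, gave -0.11 and -0.06 for the first and 0.13 and 0.46 for the second, Tipin from a mean of 2.96. Chaf1b, a subunit of the chromatin assembly factor, gave 0.00 and -0.30. Medians were 0.06 and -0.03.

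**Figure D2:**
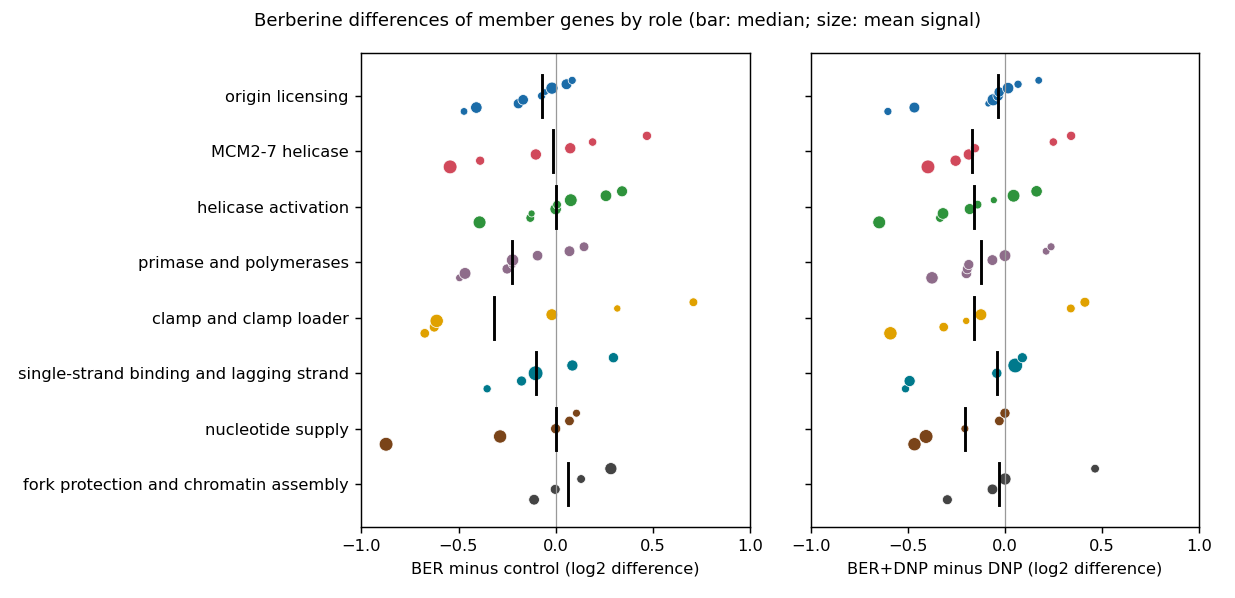
Berberine differences (log2, x axes) of the 51 genes by role, in BER minus control (left) and BER+DNP minus DNP (right); each point is a gene by its brightest probe set, larger with higher mean signal, and the bar is the median of the role. Medians run from -0.32 (clamp and clamp loader) to 0.06 on the left and from -0.21 (nucleotide supply) to -0.03 on the right, and within most roles the genes lie on both sides of 0.

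The genes were also read by brightness. A mean log2 signal of at least 5, a level chosen after the signals had been seen, was reached by 12 of the 51 genes. Below 0 in both berberine pairs lay 8 of these 12 (35.9% of the 4576 genes as bright) and above 0 in both 1 (24.4%), and both berberine arrays lay below both others for 6 of 12 (25.2%): Rrm2, Pcna, Gins2, Mcm7, Rrm1 and Pold1. Lower by at least 1.3-fold were 5 of 12 in each pair (5.62% and 5.09% of genes as bright), and 4 of 12 in both (1.79%). The other 6, Prim2, Rfc2, Orc1, Fen1, Cdc7 and Uhrf1, did not separate by berberine. Of the 15 genes below the array median, 4 lay below 0 in both pairs and 3 above, against 24% and 24.7% of genes as dim. Signals of different probe sets are not levels of expression, so a dim probe set does not show a low transcript.

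**Figure D3:**
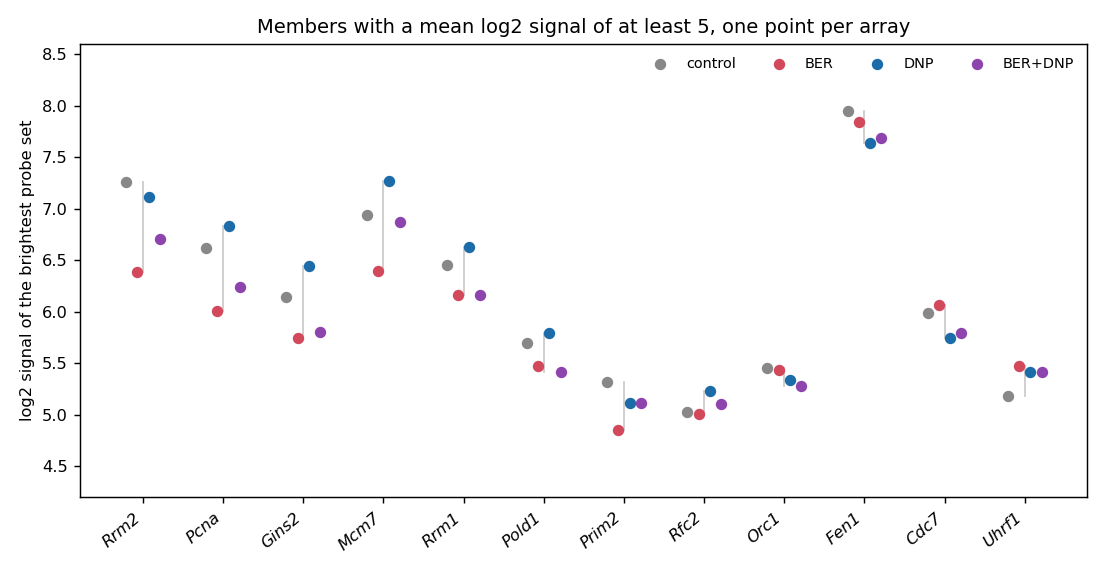
Log2 signal (y axis) of the brightest probe set on each array for the 12 genes with a mean of at least 5, ordered from the lowest mean berberine difference on the left; each point is 1 array, coloured by group, and grey lines span the range. For Rrm2, Pcna, Gins2, Mcm7, Rrm1 and Pold1 the BER and BER+DNP points lie below the control and DNP points.

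Further probe sets of the same genes were set beside the brightest, 38 of the 51 genes having more than 1. For the 21 genes below 0 in both berberine pairs, 16 had 25 further probe sets, of which 8 were also below 0 in both (27.2% of all probe sets with 1 symbol), a share near that of all probe sets. Of the 10 that read at or above the array median, 7 were (29.5% of all probe sets as bright). Mcm7 alone gave 3 of these 7, and Chaf1b, Pold1, Rrm1 and Timeless gave 1 each. Mcm7 had 4, all with a suffix of x, s or a, and all below 0 in both pairs. From the dimmest to the brightest, with means of 3.64, 4.99, 5.73 and 6.87, they gave -0.23, -0.33, -0.36 and -0.54 without the antibody and -0.18, -0.18, -0.38 and -0.40 with it. A second Rrm1 probe set at a mean of 4.96 gave -0.31 and -0.19. Rrm2 and Gins2 were not borne out in that way. The 2 further Rrm2 probe sets, at means of 1.89 and 1.67, gave 0.11 and -0.19, and 0.32 and 0.02, and a second Gins2 probe set at 4.80 gave 0.13 and 0.03. The further probe set of Cdc45, about as bright as the first at 4.81, gave -0.52 and -0.27 where the first had 0.26 and -0.32. For Pold1 the other probe set, at 4.83, gave -0.18 and -0.16.

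**Figure D4:**
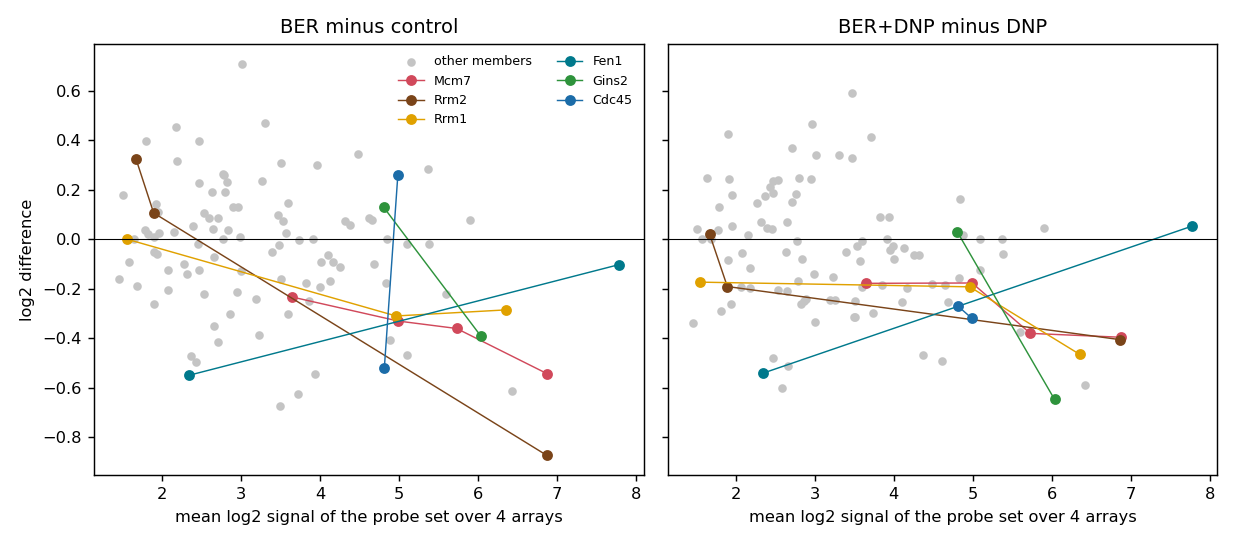
Berberine difference (log2, y axis) of each of the 110 probe sets against its mean log2 signal over the 4 arrays (x axis), in BER minus control (left) and BER+DNP minus DNP (right); lines join probe sets of the same gene for 6 genes and grey points are the others. The 4 Mcm7 probe sets lie below 0 in both panels, whereas those of Rrm2, Gins2, Cdc45 and Fen1 differ among themselves.

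The antibody was compared in the pairs DNP with control and BER+DNP with BER, which share no array with each other but share all 4 arrays with the berberine pairs. Of the 51 genes, 14 lay above 0 in both pairs (27.1% of all genes) and 10 below 0 in both (26.5%), so the shares were near those of all genes or lower. None was past 1.3-fold to the same side in both: 0 lower (0.407% of all genes) and 0 higher (0.374%), with 0 on opposite sides (0.291%). Both DNP arrays lay above the others for 6 genes (16.8% of all genes) and below for 9 (17.2%). In DNP against control 3 were at least 1.3-fold higher (4.86% of all genes) and 4 lower (4.24%), and in BER+DNP against BER 2 were higher (3.61%) and 2 lower (3.56%). Medians were 0.06 and 0.00. Mcm7 came nearest, with 0.33 without and 0.48 with berberine, followed among bright genes by Pcna with 0.22 and 0.24. The other Mcm7 probe sets were not alike. That with a mean of 5.73 gave 0.50 and 0.48, past 1.3-fold in both pairs. Those with means of 4.99 and 3.64 gave -0.06 and 0.09, and -0.10 and -0.04. By the brightest probe sets of Pcna and Mcm7 the order of the arrays was the same: DNP highest, BER lowest. Gins3 gave 0.48 and -0.05, Rpa1 0.17 and 0.43, Lig1 -0.19 and -0.53 and Cdc45 0.10 and -0.48.

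**Figure D5:**
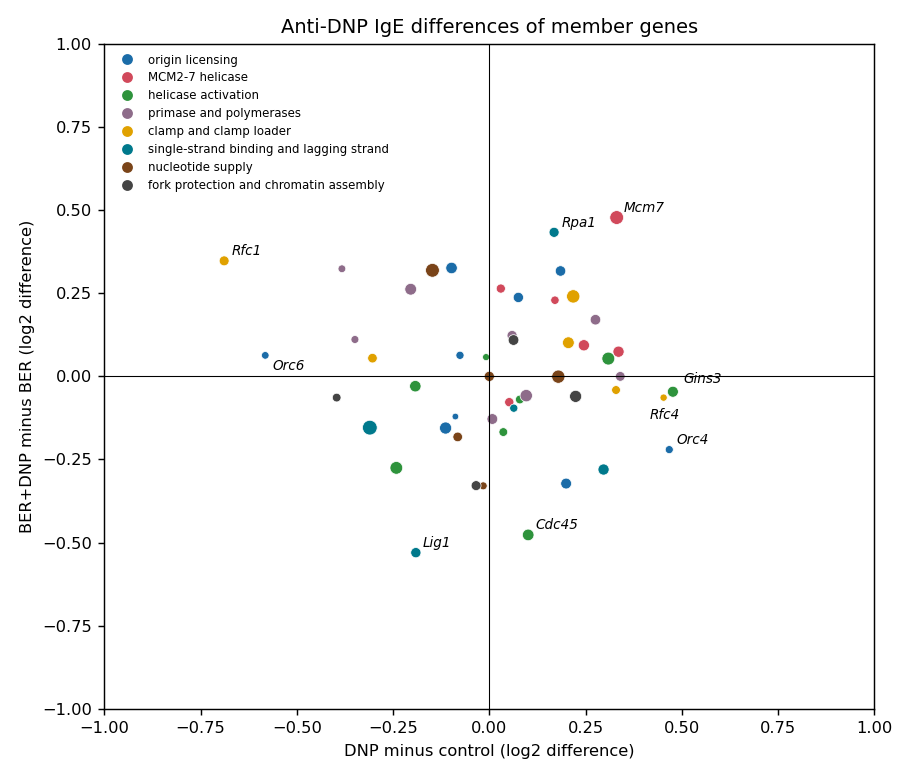
Anti-DNP IgE differences (log2) of the 51 genes in DNP minus control (x axis) and BER+DNP minus BER (y axis), by the brightest probe set, coloured by role and larger with higher mean signal. Points lie on all sides of 0, Mcm7 being the farthest into the upper right.

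BER+DNP against control shares its arrays with the comparisons above and is given for completeness. At least 1.3-fold lower were 4 genes (4.61% of all genes), Rfc3 at -0.62, Rrm2 at -0.55, Rpa3 at -0.45 and Orc6 at -0.41. At least 1.3-fold higher were 3 (4.56%), Rfc5 at 0.67, Mcm4 at 0.42 and Mcm2 at 0.39. Pcna (-0.37) and Gins2 (-0.34) lay just inside that fold. Dimmer probe sets of the genes past it gave 0.34 for Rfc3, -0.12 and 0.25 for Rrm2, -0.02 for Mcm4 and 0.04 for Mcm2. The difference of the berberine differences, with the antibody minus without it, had a median of -0.04 over the 51 genes and was 0.02 for Pcna, 0.15 for Mcm7, -0.26 for Gins2 and 0.47 for Rrm2.

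Other genes of the pathway were read from lists of further replication factors, further nucleotide synthesis genes, regulators of entry into S phase, replication checkpoint genes and mitosis genes. Over all genes, 27.9% lay below 0 and 25.2% above 0 in both berberine pairs. Further nucleotide synthesis genes lay below 0 in both berberine pairs in 13 of 31 cases and above in 2, with medians of -0.01 and -0.09. Umps, which makes uridine monophosphate, was the 1 gene of these lists at least 1.3-fold to the same side in both pairs. Of all genes, 0.737% were that much lower in both and 0.412% higher. The lists held 29, 31, 29, 17 and 19 genes, so a count of 1 is near those shares. Umps read 5.90 untreated, 5.51 with BER, 6.29 with DNP and 5.66 with both. Regulators of S phase entry lay below 0 in both in 15 of 29 and above in 5, with medians of -0.04 and -0.09. E2f1, an activator of replication genes, gave -0.16 and -0.13, the cyclin gene Ccnd1 -0.08 and -0.18, and the cyclin-dependent kinase inhibitor gene Cdkn1a 0.00 and -0.09. Further replication factors lay below 0 in both in 10 of 29 and above in 4, with medians of 0.04 and -0.13. For checkpoint genes the counts were 4 and 5 of 17, and for mitosis genes 5 and 6 of 19, with medians of -0.01 and 0.01, and 0.01 and 0.00. At least 1.3-fold lower in the 2 berberine pairs were 2 and 1 of the further replication factors, 4 and 3 of the further nucleotide genes, 1 and 3 of the regulators, 1 and 0 of the checkpoint genes and 2 and 1 of the mitosis genes, against 5.08% and 4.16% of all genes. Higher by that fold were 0 and 1 of the replication factors, of the nucleotide genes and of the regulators. For checkpoint genes these counts were 2 and 1, and for mitosis genes 2 and 2, against 4.73% and 3.03% of all genes.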

How the data were processed

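Log2 signals of 45101 probe sets on 4 arrays were made by the authors with Affymetrix Expression Console per the submitters' processing notes. For the version and the summary algorithm, nothing is stated in the labels. The log2 scale was read from the values, and the values were used as deposited. After 64 control probe sets were set apart, a platform annotation dated 2016 gave 1 symbol to 34945 probe sets, several to 932 (not used) and none to 9160. Genes were read by their brightest probe set with no filter on low signals. Differences of log2 signals between 2 arrays were counted past 1.3-fold and 1.5-fold with Python 3.11.15 and pandas 2.3.3. Shares over all 18193 genes, over genes as bright or over probe sets are given for most counts of differences. The counting rule and the quantile step were tested on simulated arrays with planted changes larger than 1.3-fold. That check does not show how the 1.3-fold counts behave in these arrays. Genes, roles, lists and folds were chosen with earlier results of these data known. Given on all arrays were genes past 1.3-fold to the same or to opposite sides in both pairs and the brightest of each role. From the other lists, genes past 1.3-fold to the same side in both berberine pairs were named, with E2f1, Cdkn1a and Ccnd1. Among marker lists this held for Spi1 (leukocyte). The lists of mast cell, epithelial, fibroblast, macrophage, erythroid and hepatocyte markers had 0 genes past that fold to the same side in both pairs. Of all genes, 0.737% were lower and 0.412% higher by it in both. The number of arrays limits the precision. Promoters came from RefSeq, build GRCm38.p6; no build is named for the array table.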

Additional observations from a re-analysis of the deposited data

Results flagged for a closer look

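Rfc1, the large subunit of the clamp loader, differed with berberine by -0.62 in BER against control and by 0.41 in BER+DNP against DNP, past 1.3-fold on opposite sides. With 1 array a group the difference between these was not tested. Its 2 other probe sets, at means of 2.77 and 2.32, gave 0.26 and 0.18, and -0.14 and 0.07.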

How the results depend on the processing

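No paired analysis was possible because each group holds 1 array; leaving out an array would leave pairs with no partner and was not run. With the median of all probe sets of a gene, 2 genes were at least 1.3-fold lower in BER against control (3.45% of all genes) and 3 in BER+DNP against DNP (2.74%), the median in the first pair was -0.023, and Rrm2 there turned to 0.11. With that setting 1 gene was at least 1.3-fold lower in both pairs (0.352% of all genes), where 4 were as reported (0.737%). Above 0 in both lay 10 of the 51 (25.4% of all genes), where 5 did as reported (25.2%). The 3 probe sets of Rrm2 include 2 with means below 2. With 32 added to the signals the counts were 3 and 2 (0.451% and 0.434% of all genes) and the medians -0.012 and -0.026. After that step 1 gene was at least 1.3-fold lower in both (0.187% of all genes). At 1.5-fold the counts were 4 and 3 (0.868% and 0.632% of all genes), with 1 gene in both (0.126%). For genes at or above the 75th percentile, 9 of 20 lay below 0 in both pairs (32.7% of genes as bright), 6 were lower without the antibody (5.49%), and the median with it was -0.22; at or above the median signal that median was -0.14. For genes with a mean of at least 5, added after seeing the data, 8 of 12 lay below 0 in both (35.9%), 5 and 5 were lower (5.62% and 5.09%), and the medians were -0.25 and -0.25. Fewer genes enter these counts. Quantile normalization left 2 of the 4 genes past 1.3-fold in both pairs (0.566% of all genes), Mcm7 and Rrm2 giving -0.31 and -0.31 in BER+DNP against DNP. As deposited, the 1720 genes with a mean of at least 6 had a median of -0.06 in that pair. Genes chosen anew by a mean of at least 6 after quantile normalization had 0.01. Filters on signal cannot change the value of a single gene. For Pcna, Mcm7, Rrm2 and Gins2 in the 2 berberine pairs, 3 settings were read: median of probe sets, quantile normalization and 32 added. With these, 23 of 24 values lay below 0 and 11 were under 1.3-fold in size. Adding 32 cannot change the sign of a difference, and Pcna has 1 probe set, so its median over probe sets is unchanged. The 4 genes were named for lying lower in both pairs, so the count of signs was in large part fixed in advance. Without probe sets of suffix x, s or a, Mcm7 had none left. Of the 46 genes that remained, 3 were at least 1.3-fold lower in both (0.567% of 16591 genes).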
